A study of Mus musculus with 204 samples.

Results

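Vcam1, Sele, Selp and Itga4 encode 4 adhesion proteins that bring leukocytes from the blood into tissue, and their RNA was followed across 21 tissues of diet-induced obese (DIO) and lean mice. The genes were chosen by name, with earlier results of these data known, and are 4 of the 13153 genes used from the deposited table. Shares over all genes are set beside their calls as a description, not as a test. The mice were male, wild type and of the C57BL/6J strain, which becomes obese when fed fat, and the design names 5 of them as lean and 5 as DIO. DIO mice ate a diet with 60% fat for 10 weeks and lean mice ate chow with 13.1% fat. The labels are inconsistent on age, since the mice were obtained at 6 to 12 weeks but the diet began at 4 weeks, and on the number of tissues, since their text speaks of 19. Each tissue had 5 libraries of either diet, apart from subcutaneous fat with 3 from DIO and 5 from lean mice, mesenteric fat with 4 and 3, and EDL, the long toe extensor muscle, with 5 and 4.

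Leukocytes leave the blood in steps. Sele (E-selectin) and Selp (P-selectin) are lectins on the endothelium that bind sugars on passing leukocytes and let them roll. Selp is stored in endothelial granules and also in platelets, so its RNA can come from either lineage, whereas Sele is made by endothelium on stimulation. Vcam1 is the immunoglobulin-type ligand on endothelium, and on some stromal cells and macrophages, that holds the rolling cell. Itga4, the alpha-4 integrin chain, is carried mainly by leukocytes and, paired with a beta chain, is the receptor for Vcam1. In obese fat these steps are studied because monocytes enter the tissue and become macrophages.

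By GENCODE M21 on GRCm38, Sele (ENSMUSG00000026582) lies on the plus strand at chr1:164048234-164057677 and Selp (ENSMUSG00000026580) on the plus strand at chr1:164115264-164150026. The gap between them is 57.6 kb. Vcam1 (ENSMUSG00000027962) lies on the minus strand at chr3:116109949-116129688, and Itga4 (ENSMUSG00000027009) on the plus strand at chr2:79255426-79333123. Because Sele and Selp are neighbours of 1 family with different tissue patterns below, the 250 bases before the start of each are shown, 5′ to 3′ on the plus strand, from RefSeq on GRCm38.p6 (chr1:164047984-164048233 and chr1:164115014-164115263). Capitals mark matches, searched on both strands, to GATAA (the core bound by GATA factors), TGACATCA (an element bound by ATF and Jun proteins) and a loose form of the NF-kB site (GGG, then any 5 bases, then CC).
Sele: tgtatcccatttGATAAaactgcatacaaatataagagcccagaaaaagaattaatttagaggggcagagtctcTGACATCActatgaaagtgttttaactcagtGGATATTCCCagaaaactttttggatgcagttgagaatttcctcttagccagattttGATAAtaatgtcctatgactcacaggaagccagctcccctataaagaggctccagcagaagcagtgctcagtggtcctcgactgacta
Selp: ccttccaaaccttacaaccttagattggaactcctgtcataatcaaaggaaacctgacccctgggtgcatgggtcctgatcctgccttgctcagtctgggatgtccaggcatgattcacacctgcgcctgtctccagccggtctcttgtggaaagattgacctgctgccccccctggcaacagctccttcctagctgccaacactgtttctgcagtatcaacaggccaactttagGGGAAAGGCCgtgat
The Sele window holds 2 matches to GATAA, 1 to TGACATCA and 1 to the NF-kB form. The Selp window holds 1 match to the NF-kB form and neither of the others, and the Itga4 window in the same table holds none of the 3. Among 32851 mouse promoter windows of this length, 22.6% hold GATAA, 2.93% hold TGACATCA and 45.8% hold the NF-kB form, so the first and last are common. A match is a description of the letters, not a binding site.

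Levels are given in CPM, reads of the gene scaled to a common library total. Library totals ranged from 6.58 to 129.7 M reads (median 20.7), the highest being epididymal fat DIO 3 and the next 30.9. Marker genes in the table fitted the labelled tissues (Apoa2 averaged 5312 CPM in liver, Car1 8673 CPM in colon and Hsd3b1 6625 CPM in adrenal), with exceptions. Set apart were 10 libraries in which a marker of another tissue stood out, or the tissue's own was missing. Subcutaneous fat lean 2 and 3 and mesenteric fat DIO 2 carried the B-cell and follicular dendritic receptor Cr2 at 147, 146 and 269 CPM, where no other library of those depots exceeded 4.98 CPM. Retroperitoneal fat DIO 3 had a summed lymphoid marker level of 683 CPM against at most 162 in the rest of its tissue. Retroperitoneal fat lean 2 and brown fat DIO 5 and lean 2 had the muscle gene Ttn at 90.8, 765 and 295 CPM. Brown fat lean 3, 4 and 5 also carried muscle genes, at summed levels of 202, 73.5 and 196 CPM, but were not set apart. Adrenal DIO 1 had the liver gene Apoa2 at 3651 CPM against at most 41.8 CPM in the rest of its tissue. Adrenal DIO 1, DIO 2 and lean 1 lacked the steroid enzyme Hsd3b1. Orders of lean tissues leave these 10 libraries out, and with them subcutaneous fat came first for Vcam1 (55.2 CPM) and Itga4 (67.1 CPM). Diet results in these tissues are given with all libraries, and for several of the genes and gene lists also without them. Named list genes are given with all libraries, apart from Pear1 in subcutaneous fat. The labels do not tie libraries to mice, so p-values measure the spread between libraries, and libraries of different tissues may come from the same mice.

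Sele averaged 0.5 CPM or more over both diets in only 5 of the 21 tissues. It was highest in the adrenal gland, where the 4 lean libraries with Hsd3b1 (2, 3, 4 and 5) had 4.05, 4.61, 14.7 and 4.39 CPM. Heart came next among lean tissues, with 0.955, 1.06, 1.60, 0.865 and 1.03 CPM, and did not overlap the adrenal libraries. The other 19 neighbouring pairs in the order of lean tissues overlapped in range. Lean means were 0.971 CPM in subcutaneous fat without lean 2 and 3 and 0.658 CPM in retroperitoneal fat without lean 2, and 0.161 CPM or less in soleus and all tissues ranked below it. The lean colon held 1 Sele read in 5 libraries. No Sele read was found in the 5 DIO libraries of jejunum or of colon, which allows up to 0.0352 and 0.0341 CPM over each group, counting error only.

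Selp, its neighbour, was a gene of white fat. In the lean epididymal libraries it was at 7.05, 11.2, 10.5, 8.28 and 6.57 CPM, and in the lean mesenteric libraries at 7.39, 11.2 and 8.34 CPM. The lean retroperitoneal libraries had 7.80, 11.2, 7.34, 7.73 and 7.78 CPM. Without the libraries set apart above, the 4 white fat depots were the 4 highest lean tissues and the lowest of them, subcutaneous fat at 6.88 ± 0.138 CPM (SD, n = 3), did not overlap the next, adrenal, at 2.25 ± 1.66 CPM (SD, n = 4). Brown fat was far lower, at 0.750 ± 0.315 CPM (SD, n = 4). Intestine and muscle lay between 0.544 CPM in duodenum and 1.96 CPM in ileum. In the brain Selp was near 0: none of the 10 cerebral cortex libraries held a read, which allows up to 0.0340 CPM over the lean and 0.0385 CPM over the DIO group.

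Vcam1 was found in every tissue. The 4 lean adrenal libraries with Hsd3b1 had 29.7, 43.4, 50.8 and 41.7 CPM. Hypothalamus followed, with 29.4, 30.0, 28.2, 30.3 and 33.1 CPM in lean mice, and mesenteric fat with 23.6, 30.6 and 28.8 CPM. Cerebral cortex was at 25.3 ± 1.39 CPM and epididymal fat at 21.2 ± 1.67 CPM (SD, n = 5 each). Below epididymal fat there was 1 gap in the order of lean tissues, to subcutaneous fat at 16.1 ± 1.71 CPM (SD, n = 3), while the other 19 neighbouring pairs overlapped. Red gastrocnemius was lowest, at 3.30 ± 0.441 CPM (SD, n = 5), and brown fat stood beside the muscles at 3.61 ± 1.05 CPM (SD, n = 4).

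Itga4 was highest in lean mice in the cerebral cortex, at 20.8, 31.2, 24.5, 30.8 and 28.9 CPM, with no overlap with the next tissue, mesenteric fat (9.88, 13.6 and 20.3 CPM). The other 19 neighbouring pairs overlapped. Colon, jejunum, epididymal fat, ileum and retroperitoneal fat had lean means between 10.4 and 12.4 CPM, and brown fat was lowest with 1.74 ± 0.192 CPM (SD, n = 4). The summed level of the 10 leukocyte markers was 89.0 to 105 CPM in the lean cortex libraries. In other lean tissues it was 149 to 231 CPM in epididymal, 124 to 207 in retroperitoneal, 142 to 235 in mesenteric and 104 to 188 in subcutaneous fat without lean 2 and 3, and 56.5 to 103 CPM in liver. Cerkl overlaps the 3′ end of Itga4 on the other strand and averaged 2.84 CPM in cortex and 15.2 CPM in cerebellum, its highest tissue. The strand setting used in counting is not given in the sources used here.

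**Figure D1:**
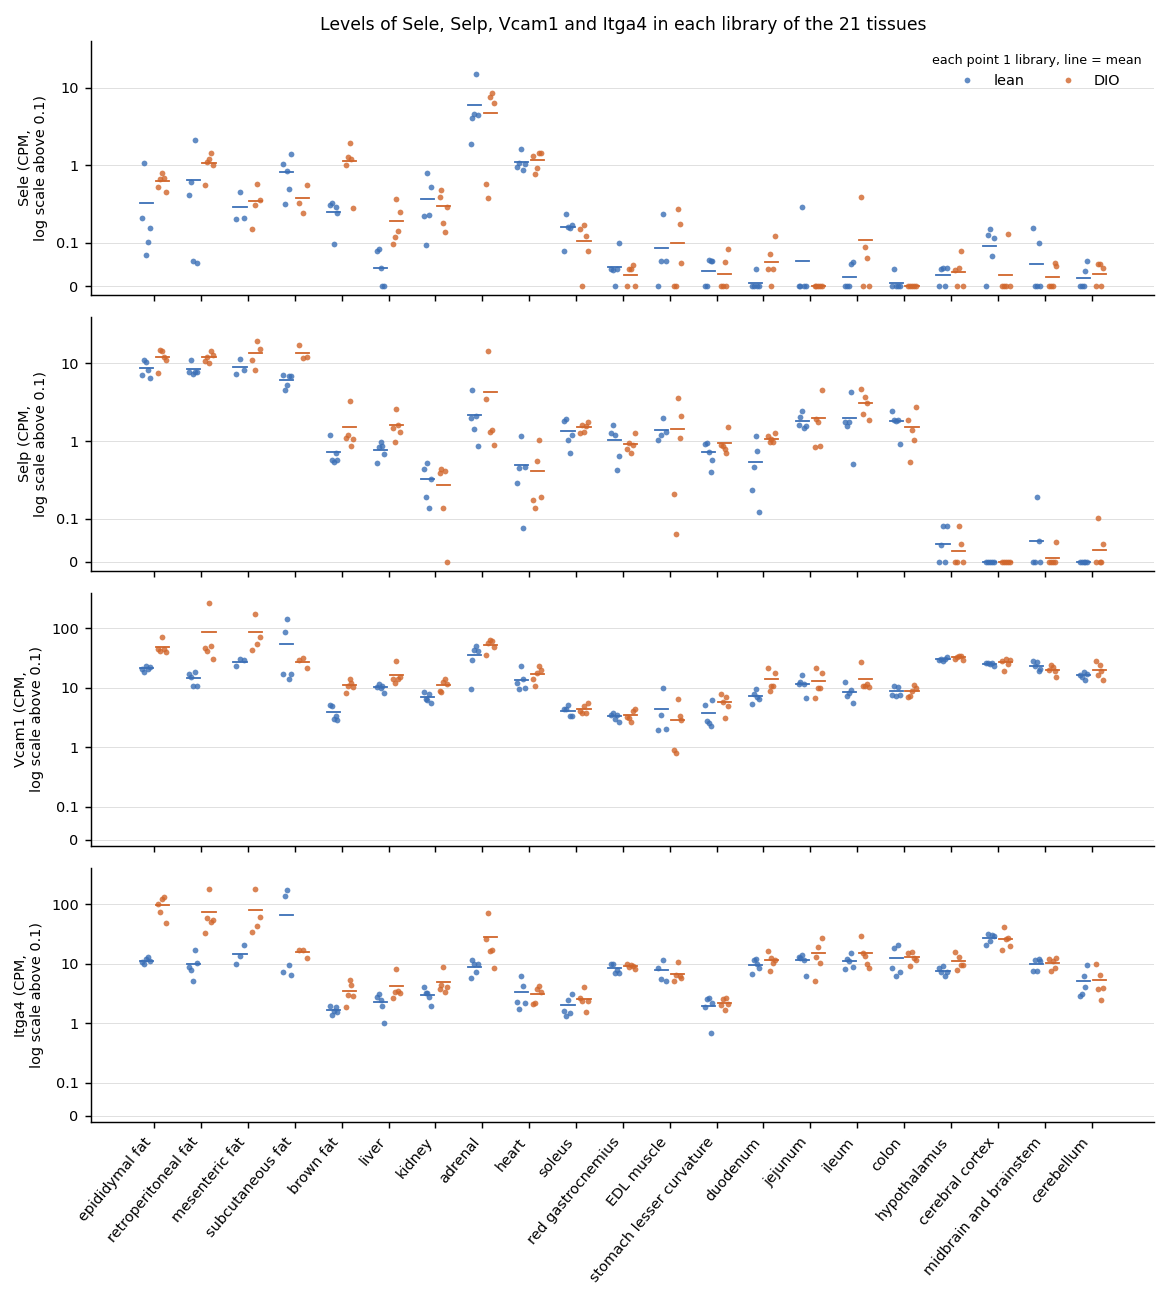
Level of each gene (CPM, log scale above 0.1 and linear below) in each library of the 21 tissues, with lean in blue, DIO in orange and a line at the group mean. Sele is highest in the adrenal gland, Selp is highest in the 4 white fat depots and at 0 in cerebral cortex, Vcam1 is present in every tissue, and lean Itga4 is high in cortex and in the 2 subcutaneous libraries with Cr2.

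Divided by exon length (2.912 kb for Sele, 4.413 for Selp, 8.87 for Vcam1 and 13.978 for Itga4, all exons joined), levels can be set beside each other. In lean epididymal fat they were 2.39 CPM per kb for Vcam1, 1.98 for Selp, 0.810 for Itga4 and 0.111 for Sele. In the DIO libraries of that depot Itga4 moved to the top with 6.82 CPM per kb, ahead of Vcam1 with 5.46, Selp with 2.72 and Sele with 0.214.

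The genes with the most similar tissue pattern were sought over the means of 21 lean tissues, among 4223 genes, as a description of points that share libraries and depth. For Sele they were C430049B03Rik (Pearson's r of 0.90), Akr1cl, Hsd3b1, Hsd3b6 and Gm28382, each highest in adrenal; Hsd3b1 is the enzyme that marks steroid-making cells, with an r of 0.83. For Selp they were Slc43a1 (0.95), an amino acid transporter, Ifi205, Col6a3 (0.91), a collagen chain of fat and connective tissue, Cd247 and Gbp2. Vcam1 was closest to Dock10 (0.89), Rtl8c, Tlr7, Acp2 and Gabra3, and Itga4 to Slx4ip (0.81), Arhgap15 (0.81), Hs2st1, Fkbp1a and Dsn1. Of the pairs among the 4 genes, the highest r was 0.57, for Vcam1 and Itga4, and Sele with Itga4 had 0.03. Selp reached 0.71 with the leukocyte gene Ptprc, and Sele 0.72 with the endothelial gene Eng.

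For diet, each gene was compared between DIO and lean libraries within each tissue, as log2 of DIO over lean on CPM + 0.5 with its standard error, from limma over all genes that averaged 0.5 CPM or more in that tissue. This scale understates changes of genes near 1 CPM. Of 84 pairs of gene and tissue 62 could be tested, 13 were higher in DIO at an adjusted p below 0.05 and 0 were lower. At an unadjusted p below 0.05, 22 were higher and 0 lower, edgeR called 10 higher and 0 lower, and DESeq2 12 and 0. By limma with adjusted p, 7.08% of tested pairs over all genes and tissues were called higher and 2.51% lower. In 10 of the 62 every DIO library lay above every lean library, against 8.00% of all pairs, and in 0 below, against 2.94%. Array weights in limma, which give unlike libraries less weight, called 19 higher and 0 lower. All genes moved with the test too. In mesenteric fat 1018 of 3604 genes were higher by limma, 279 by edgeR and 1779 with array weights. In stomach 1 of 3639 was higher by limma and 1218 with array weights. Shares over all tissues by unadjusted p, edgeR, DESeq2 or array weights are not given here, so those counts of members only describe them. Vcam1 rose in 5 of 21 tissues, Itga4 in 4 of 21, Selp in 3 of 15 and Sele in 1 of 5. All 13 lay in 6 tissues: the 4 white fat depots, brown fat and liver, tissues in which 8.31% to 33.1% of all tested genes rose. The share of all calls that were higher moved from 84.1% to 38.7% in mesenteric fat, from 73.4% to 51.4% in brown fat and from 81.1% to 52.3% in liver when libraries were rescaled by median-of-ratios factors.

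**Figure D2:**
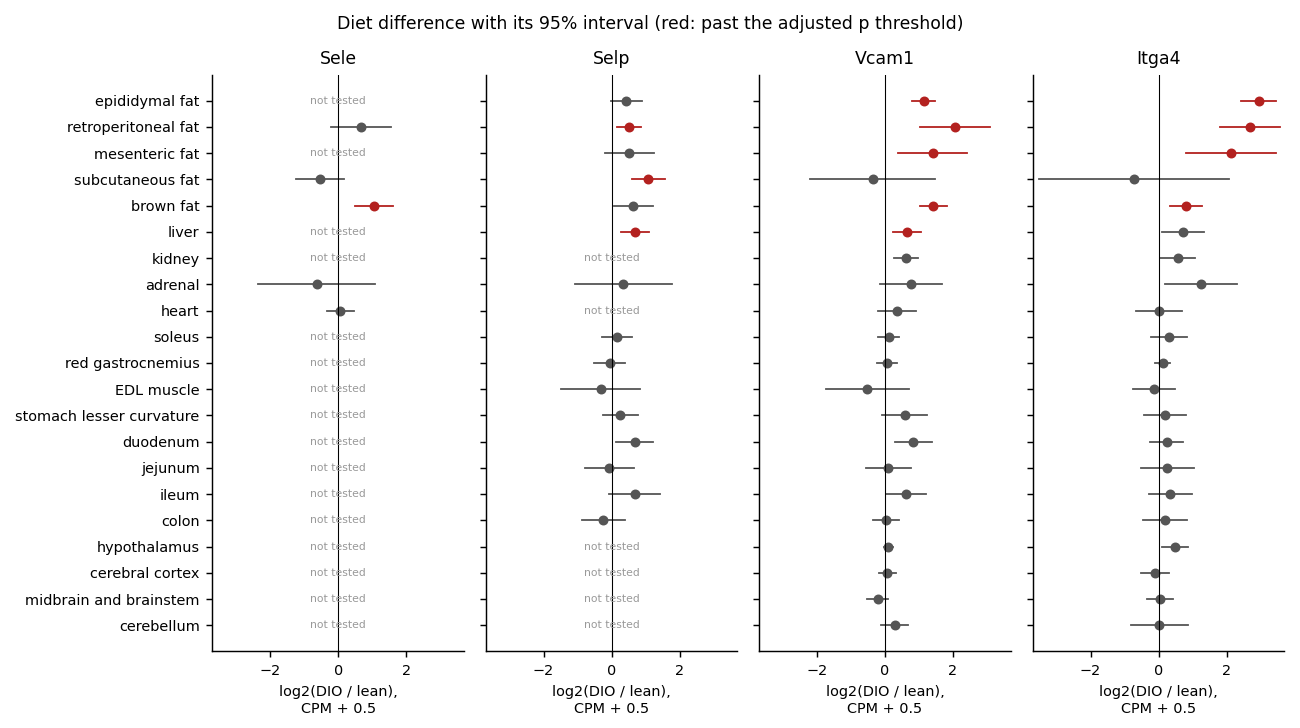
Difference of each gene between DIO and lean libraries (log2, x axis) in each of the 21 tissues, with its 95% interval; red points are past the adjusted p threshold. The 13 red points lie in white fat, brown fat and liver, and Itga4 in epididymal fat has the highest value, 2.94.

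Itga4 rose most in epididymal fat, the depot around the testis. Lean libraries had 10.8, 9.75, 11.9, 13.1 and 11.04 CPM and DIO libraries 99.5, 75.0, 122, 132 and 48.8 CPM. The groups were far apart, with a log2 difference of 2.94 ± 0.23 and an adjusted p of 8.3e-07. Its ligand Vcam1 was at 21.04, 18.6, 22.9, 21.1 and 22.3 CPM in lean and 44.9, 42.0, 71.7, 44.3 and 39.5 CPM in DIO libraries. These groups did not overlap either, and the log2 difference was 1.14 ± 0.16 (adjusted p of 6.58e-05). The 2 genes called of 3 tested compare with 33.1% of all tested genes called higher in this depot, and 25.8% with every DIO library above every lean library. Selp ranged from 7.55 to 14.9 CPM in DIO against 6.57 to 11.2 CPM in lean libraries, and the difference of 0.43 ± 0.21 did not pass (adjusted p of 0.107). It was called with array weights (adjusted p of 0.0299), with the endothelial covariate described below (0.0276) and without DIO 1 (0.0263). Shares of all genes in those fits are not given here. Sele, at 0.625 ± 0.135 CPM in DIO and 0.323 ± 0.423 in lean libraries (SD, n = 5 each), was too low to test.

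Other genes of the adhesion cascade moved in the same depot. Of 17 tested of a list of 19 (receptors, selectin-sugar enzymes, chemokine receptors and integrin activators), 10 rose and 1 fell, with a median log2 difference of 0.92 against 0.14 over all genes tested. The lowest p belonged to Cd44 (414 against 20.8 CPM in DIO and lean), a hyaluronan receptor of leukocytes, Vav3 (36.6 against 8.19), a guanine nucleotide exchange factor, Apbb1ip (104 against 15.5), which activates integrins in blood cells, and Itgav (75.6 against 22.4), another integrin chain. Of 21 tested cytokine and NF-kB control genes 13 rose and 0 fell, with a median of 0.64. Il1rn, the interleukin-1 receptor antagonist, went from 0.878 to 106 CPM, Ikbke, an NF-kB kinase, from 18.8 to 78.5, Il1r2 from 0.0912 to 1.61 and Traf5 from 7.35 to 20.0 CPM.

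Markers of the cells that carry these proteins moved differently from each other in epididymal fat. All 10 leukocyte markers tested rose, their summed level being 149 to 231 CPM in lean against 1683 to 4612 CPM in DIO libraries. All 12 macrophage markers rose too, from 172 to 253 CPM to 1997 to 5716 CPM. Of 14 endothelial markers 3 rose (Cd93, Cd34, Procr) and 6 fell, Thbd among them, and their sum was 1116 to 1314 CPM in lean against 995 to 1237 CPM in DIO libraries. In bulk tissue a change in the number of cells of a type cannot be told apart from a change in RNA per cell. Fits with these marker levels as covariates are given after the tissues.

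Retroperitoneal fat, behind the kidney, showed the same pair of genes. Itga4 was at 8.85, 7.97, 5.15, 17.0 and 10.4 CPM in lean and 32.5, 57.7, 179.7, 50.9 and 54.4 CPM in DIO libraries, a log2 difference of 2.70 ± 0.41 (adjusted p of 2.91e-04). Vcam1 was at 17.3, 15.4, 10.8, 18.2 and 10.9 CPM in lean and 46.3, 41.3, 265, 51.3 and 30.2 CPM in DIO libraries, a difference of 2.05 ± 0.47 (adjusted p of 0.00479). Both were separated between the groups, and DIO 3, the library with the high lymphoid markers, was the highest for both. Without DIO 3 and lean 2, Itga4 was 2.27 ± 0.31 (adjusted p of 3.23e-04) and Vcam1 1.54 ± 0.23 (adjusted p of 4.75e-04) higher, with 27.1% of all genes higher.

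Selp rose as well in this depot, from 7.80, 11.2, 7.34, 7.73 and 7.78 CPM in lean to 10.6, 12.2, 10.0, 14.3 and 12.8 CPM in DIO libraries. Lean 2, which carries muscle genes, overlapped the DIO group, and the difference was 0.50 ± 0.16 (adjusted p of 0.0289). Without lean 2 and DIO 3 it was 0.66 ± 0.15 (adjusted p of 0.0065), while by edgeR it was 0.25 (adjusted p of 0.266) and after rescaling 0.26 (adjusted p of 0.224). It also missed the threshold by DESeq2 (adjusted p of 0.242), in a single limma fit over all tissues (0.164) and with no filter on low genes (0.0505). The call was lost without DIO 2, 4 or 5 or lean 1, 4 or 5 (adjusted p up to 0.0784). Sele spanned 0.0533 to 2.11 CPM in lean against 0.550 to 1.43 CPM in DIO libraries and did not pass (0.67 ± 0.40, adjusted p of 0.213), but was called without lean 4, its highest library (1.03 ± 0.30, adjusted p of 0.0197), and in the single fit (adjusted p of 0.0231). Shares of all genes in those fits are not given here. The 3 genes called of 4 tested compare with 29.7% of all genes higher here, and the 2 with separated groups with 24.5%. Of 17 adhesion genes tested 8 rose, led by Cd44 (209 against 17.5 CPM), Apbb1ip, Vav3 and Fut7, which makes the sugar that selectins bind (2.29 against 0.147 CPM), with a median of 0.81 against 0.22 over all genes. Of 21 cytokine genes 11 rose, with Il1rn (58.2 against 0.767 CPM), Il1rl1, Ikbke and Il6ra first. All 10 leukocyte markers rose, summing to 124 to 207 CPM in lean against 1183 to 4535 CPM in DIO libraries, and of 14 endothelial markers 2 rose and 1 fell (sums of 901 to 1100 CPM in lean against 883 to 1314 CPM in DIO libraries). Without DIO 3 and lean 2, the endothelial sums no longer overlapped (901 to 1100 against 1185 to 1314 CPM), 4 of these markers rose and 1 fell, all 10 leukocyte markers rose, and 9 of 17 adhesion and 12 of 20 cytokine genes rose. Pear1, a receptor of endothelium and platelets and the only platelet list gene high enough to test, rose as well (47.7 against 36.0 CPM, adjusted p of 0.0447).

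Mesenteric fat, around the gut, held smaller groups. Itga4 was at 9.88, 13.6 and 20.3 CPM in lean and 33.6, 180.5, 42.9 and 61.7 CPM in DIO libraries, a log2 difference of 2.14 ± 0.56 (adjusted p of 0.0273). Vcam1 was at 23.6, 30.6 and 28.8 CPM in lean and 43.9, 172, 54.5 and 70.4 CPM in DIO libraries, a difference of 1.40 ± 0.44 (adjusted p of 0.0447). The groups were separated for both genes, and DIO 2, the library with Cr2, was far above the rest. Without it the differences were 1.64 ± 0.30 for Itga4 and 0.99 ± 0.18 for Vcam1, each with an adjusted p of 0.0042.

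Selp was at 7.39, 11.2 and 8.34 CPM in lean and 10.98, 8.33, 19.7 and 15.4 CPM in DIO mesenteric fat, and DIO 2 was the low library (0.52 ± 0.30, adjusted p of 0.202). Without DIO 2 the difference was 0.72 ± 0.24 and passed (adjusted p of 0.0386), in a fit with 47.4% of all genes higher. With all libraries, the 2 genes called of 3 tested compare with 28.2% of all genes higher, and 47.0% of all genes had every DIO library above every lean library. The median gene here was itself 0.44 higher in DIO, and after rescaling Itga4 (1.74, adjusted p of 0.0626) and Vcam1 (0.99, adjusted p of 0.138) no longer passed; by edgeR the adjusted p were 0.0625 and 0.114, and with no filter on low genes Vcam1 came to 0.0703. The call was also lost without DIO 4 or any lean library for both genes, and without DIO 3 for Vcam1 (adjusted p up to 0.104 for Itga4 and 0.139 for Vcam1). Of 18 adhesion genes 9 rose, with Vav3 (18.4 against 5.84 CPM), Cd44 (117 against 25.5), Itgav and F11r first, and a median of 0.95. Of 22 cytokine genes 8 rose, with Il1rn (13.7 against 0.692 CPM), Il6ra, Ikbkg and Csf1 first. Of 10 leukocyte markers 9 rose (142 to 235 CPM summed in lean, 772 to 2314 in DIO libraries), and of 14 endothelial markers 6 rose (780 to 908 CPM in lean, 1069 to 1488 in DIO libraries). Without DIO 2, all 10 leukocyte markers rose (772 to 1271 CPM summed in DIO libraries), as did 9 endothelial markers, 13 of 17 adhesion genes and 9 of 20 cytokine genes.

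In subcutaneous fat Selp was the only one of the 4 genes called with all libraries. It was at 7.04, 4.59, 5.32, 6.80 and 6.81 CPM in lean and 17.1, 11.6 and 11.9 CPM in DIO libraries. The groups did not overlap, and the log2 difference was 1.08 ± 0.21 (adjusted p of 0.0164). The 1 gene called of 4 tested compares with 8.31% of all genes higher, and 18.1% had every DIO library above every lean library. The call was lost when any of the 3 DIO libraries was left out (adjusted p up to 0.0982). Pear1 was at 59.4 CPM in DIO and 47.9 in lean libraries and did not pass (adjusted p of 0.39). Without lean 2 and 3 it was 0.68 higher on the log2 scale and passed. By limma with all libraries Pear1 also rose in mesenteric fat (adjusted p of 0.0148) and brown fat (1.35e-04). It did not pass in epididymal fat (0.149) or liver (0.683).

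The other subcutaneous results turned on lean 2 and 3, the libraries with Cr2. Itga4 was at 7.26, 138, 174, 9.37 and 6.50 CPM in lean and 17.1, 17.2 and 12.6 CPM in DIO libraries. Vcam1 was at 17.0, 86.7, 141, 14.2 and 17.3 CPM in lean and 28.9, 31.5 and 21.6 CPM in DIO libraries. With all libraries neither passed (Itga4 -0.73 ± 1.21 and Vcam1 -0.37 ± 0.80, adjusted p of 0.715 and 0.783). Without lean 2 and 3 both were higher in DIO, Itga4 by 0.98 ± 0.18 (adjusted p of 0.00353) and Vcam1 by 0.73 ± 0.15 (adjusted p of 0.00656), with separated groups. In that fit 28.5% of all genes were higher. Selp did not share this pattern, since lean 2 and 3 were its lowest libraries. Sele was at 1.04, 0.314, 0.850, 0.497 and 1.38 CPM in lean and 0.324, 0.242 and 0.563 CPM in DIO libraries (-0.54 ± 0.31, adjusted p of 0.291).

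Of 18 adhesion genes tested in subcutaneous fat 3 rose, Thbs1 (98.5 against 21.2 CPM), Itga6 (290.2 against 139 CPM) and Itgav, and 0 fell, with a median of 0.30 against -0.05 over all genes. Of 22 cytokine genes Ikbkg, a subunit of the NF-kB kinase, rose and the decoy receptor Il1r2 fell (1.43 against 11.8 CPM). None of the 10 leukocyte markers passed; their sums were 104 to 2435 CPM in lean against 277 to 371 CPM in DIO libraries. Without lean 2 and 3, the lean sums were 104 to 188 CPM, below all DIO libraries, and 9 of the 10 rose. Of 14 endothelial markers 4 rose, Cd93, Eng, Aplnr and Dll4, and the sums did not overlap (731 to 1042 CPM in lean, 1254 to 1477 CPM in DIO libraries). Without lean 2 and 3, 7 endothelial markers rose and 2 fell, 10 of 16 adhesion genes rose, and of 20 cytokine genes 5 rose and 2 fell.

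Across the 35 white fat libraries Itga4 followed Ptprc, the pan-leukocyte phosphatase CD45. Itga4 spanned 5.15 to 180.5 CPM and Ptprc 12.5 to 926 CPM, while the ratio of Itga4 to Ptprc stayed between 0.188 and 0.613 with a median of 0.346. The 4 libraries with lymphoid markers (subcutaneous lean 2 and 3, mesenteric DIO 2, retroperitoneal DIO 3) were at the high end of both genes. For Vcam1 the ratio to Ptprc was lower in DIO than in lean libraries in 2 depots with no overlap: 0.139 to 0.246 against 0.589 to 0.874 in epididymal fat, and 0.216 to 0.490 against 0.538 to 0.813 in mesenteric fat. Selp spanned only 4.59 to 19.7 CPM over the same libraries and was at 4.59 and 5.32 CPM in the libraries with the highest lean Ptprc.

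**Figure D3:**
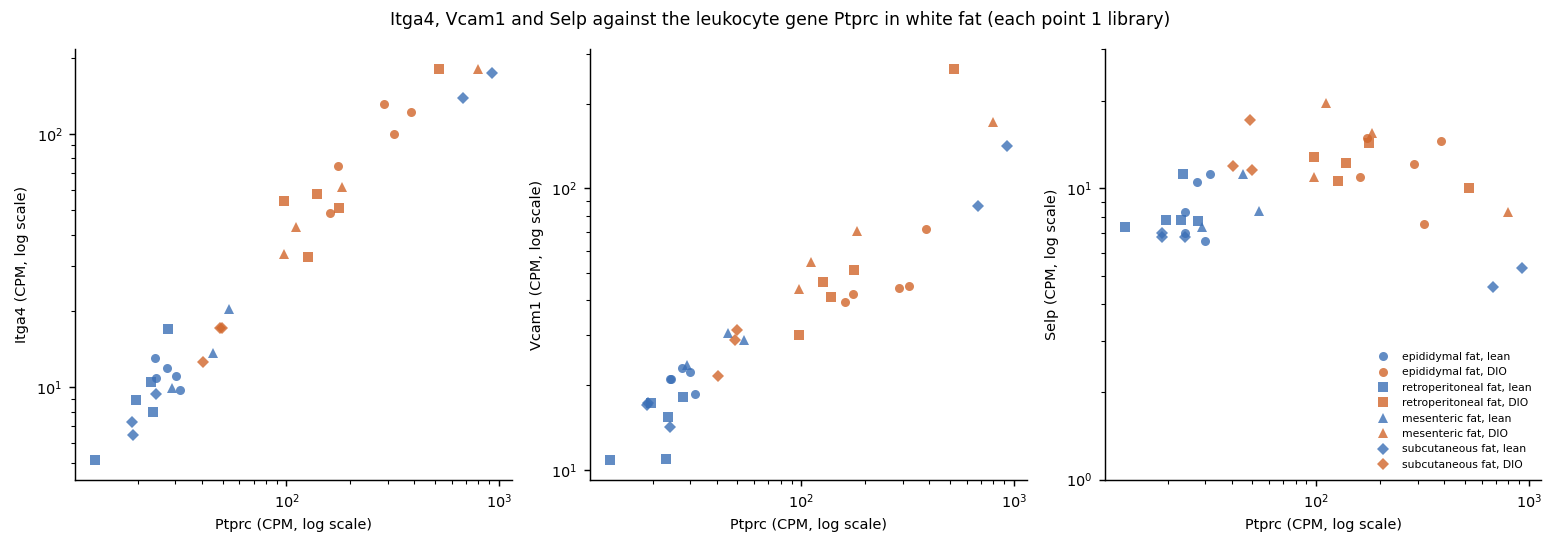
Level of Itga4, Vcam1 and Selp against Ptprc (CPM, both axes log scale) in the 35 libraries of 4 white fat depots, with shapes for depots, blue for lean and orange for DIO. Itga4 and Vcam1 are high where Ptprc is high, up to 180.5 and 265 CPM, and Selp stays between 4.59 and 19.7 CPM.

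Whether the diet difference itself varied among the 4 white fat depots was tested by the diet by tissue term. Itga4 passed (adjusted p of 0.0228) and the others did not (Vcam1 0.0758, Sele 0.147, Selp 0.264), where 29.1% of all genes tested passed. Without the libraries set apart above the adjusted p for Itga4 was 0.00605. With all libraries, leaving out any of the 3 subcutaneous DIO libraries or subcutaneous lean 2 took it above the threshold, up to 0.0765 without DIO 3. Vcam1 passed without subcutaneous lean 1, 4 or 5 (adjusted p from 0.034), and Sele without retroperitoneal lean 4 (0.0256). By the same test 0 members passed in muscle, intestine or brain, where 0.00%, 9.57% and 0.0260% of all genes did. By limma with all libraries and without rescaling, 0 members had an unadjusted p below 0.05 there, and the lowest was 0.0941, for Vcam1 in brain. After rescaling, Vcam1 in brain had an unadjusted p of 0.0387 in this test but did not pass after adjustment.

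Brown fat, the heat-making depot, was among the lowest lean tissues for Vcam1 and Itga4 and had 3 genes called of 4 tested, against 29.7% of all genes higher. Vcam1 was at 5.15, 4.89, 3.04, 3.36 and 2.89 CPM in lean and 8.19, 10.7, 14.3, 12.1 and 10.1 CPM in DIO libraries, a log2 difference of 1.42 ± 0.18 (adjusted p of 9.91e-05). It alone had separated groups, as did 19.9% of all genes. Itga4 was at 1.94, 1.39, 1.59, 1.88 and 1.57 CPM in lean and 1.84, 2.96, 5.36, 4.42 and 2.92 CPM in DIO libraries (0.81 ± 0.22, adjusted p of 0.0108), where DIO 1 lay within the lean group and the call was lost in the single fit (adjusted p of 0.147).

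By limma in each tissue with all libraries, Sele was called in brown fat and in none of the other 4 tissues tested. Sele passed the filter of 0.5 CPM in brown fat only through the DIO libraries, which averaged 1.14 CPM against 0.252 CPM in lean. Which tissues were tested for Sele thus depends on the filter, and no contrast between tissues is drawn from this call. It was at 0.311, 0.326, 0.0965, 0.287 and 0.241 CPM in lean and 1.01, 1.27, 1.93, 1.20 and 0.284 CPM in DIO libraries. The low DIO library was DIO 5, with muscle genes, and the difference was 1.04 ± 0.26 with it (adjusted p of 0.00704) and 1.32 ± 0.20 without DIO 5 and lean 2 (adjusted p of 5.32e-04, with 25.3% of all genes higher). Selp was at 1.21, 0.570, 0.531, 0.696 and 0.563 CPM in lean and 1.09, 1.22, 3.29, 0.858 and 1.05 CPM in DIO libraries and did not pass (0.64 ± 0.27, adjusted p of 0.0751) unless lean 1 was left out (adjusted p of 0.0412). The share of all genes higher without lean 1 is not given here.

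The endothelial list moved as a block in brown fat: 13 of 14 tested markers rose, and their sum was 301 to 400.4 CPM in lean against 592 to 902 CPM in DIO libraries. Of 17 adhesion genes 12 rose and 1 fell, with Itga6 (86.9 against 45.3 CPM), Cd44 (7.26 against 1.52), Thbs1 (18.7 against 2.95) and Cd34, a marker shared with the endothelial list, first; the median was 0.85 against 0.10 over all genes. Of 14 cytokine genes 10 rose and 1 fell, with Csf1, the macrophage growth factor (22.4 against 7.27 CPM), Il1r1, Ikbke and Il1rn first. Of 10 leukocyte markers 9 rose, but at low levels (15.9 to 28.3 CPM summed in lean, 32.0 to 91.8 CPM in DIO libraries). The muscle gene Ttn spanned 0.300 to 765 CPM in this tissue and was above 30 CPM in 4 of 5 lean and 1 of 5 DIO libraries; its part in these results was not tested beyond leaving out DIO 5 and lean 2, after which 13 of 14 endothelial markers, all 9 leukocyte markers tested, 12 of 16 adhesion and 8 of 14 cytokine genes rose.

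In liver Vcam1 and Selp were called, 2 of 3 tested, against 18.2% of all genes higher and 13.2% separated upwards. Vcam1 was at 10.3, 11.7, 9.87, 10.7 and 8.29 CPM in lean and 14.1, 11.8, 28.2, 14.2 and 15.3 CPM in DIO libraries (0.63 ± 0.19, adjusted p of 0.0331). Selp was at 0.522, 0.848, 0.962, 0.862 and 0.678 CPM in lean and 1.46, 0.981, 2.58, 1.61 and 1.33 CPM in DIO libraries (0.68 ± 0.19, adjusted p of 0.0214). The groups were separated for both by narrow margins, and DIO 3 was the highest for both. Itga4 was at 2.77, 3.05, 2.47, 1.93 and 1.02 CPM in lean and 2.63, 3.29, 8.17, 3.50 and 3.23 CPM in DIO libraries and did not pass (0.72 ± 0.28, adjusted p of 0.0891). Sele was too low to test, at 0 to 0.0848 CPM in lean against 0.0973 to 0.362 CPM in DIO libraries, and with no filter on low genes it was 0.35 higher in DIO (adjusted p of 0.044).

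A limit applies to Selp in liver. Gm16548, a noncoding gene that overlaps its 3′ end on the other strand, is highest in liver and was at 12.5, 13.9, 14.6, 13.6 and 12.6 CPM in lean and 11.8, 10.3, 6.04, 8.40 and 10.8 CPM in DIO libraries, which is above Selp and in the opposite direction (fell by 0.52 ± 0.15 on the log2 scale, adjusted p of 0.0278). Vcam1 lost its call when any of 6 libraries was left out (adjusted p up to 0.0703), after rescaling (0.0612), with no filter on low genes (0.0602) and in the single fit (0.277). Selp lost it in the single fit (0.166), with no filter (0.0621) and without DIO 4 (0.0525). Of 16 adhesion genes 2 rose, Apbb1ip and Cd44, and of 16 cytokine genes 1 rose, Il1rn (6.19 against 1.92 CPM), and 2 fell, Il1r1 among them (25.9 against 48.5 CPM). Of 10 leukocyte markers 1 rose, Cybb, and of 13 endothelial markers 1 rose, Notch1.

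The diet difference was also fitted with the mean log2 level of the endothelial or of the leukocyte markers as a covariate. With the leukocyte covariate, 1 of the 13 calls remained, Selp in subcutaneous fat (1.04 ± 0.16, adjusted p of 8.17e-04), and Itga4 in mesenteric fat changed sign to lower in DIO (-1.02 ± 0.23, adjusted p of 0.0229). All genes moved in the same fits: 0.892% were higher in epididymal, 1.24% in retroperitoneal, 15.3% in mesenteric and 2.29% in brown fat and 6.94% in liver, each less than without the covariate, but 24.7% in subcutaneous fat, which is more. In mesenteric fat 4.02% were lower. The covariate fits used all libraries. In subcutaneous fat this kept lean 2 and 3, whose leukocyte sums were 1629 and 2435 CPM, against 277 to 371 CPM in DIO libraries. Whether Selp would keep its call with this covariate but without lean 2 and 3 was not tested. Itga4 in epididymal fat came to 0.23 ± 0.74 and Vcam1 to -0.13 ± 0.62. In that depot the leukocyte sums of the diets did not overlap, and the standard errors of these fits were wide. The sums did not overlap in retroperitoneal, mesenteric or brown fat either. Fits with this covariate there cannot tell a diet difference from a leukocyte difference, and no decrease is concluded from a changed sign. Vcam1 in retroperitoneal fat came to -2.19 ± 0.56 (adjusted p of 0.0708) and in mesenteric fat to -0.97 ± 0.29 (adjusted p of 0.0523). With the endothelial covariate 8 pairs were called, among them Itga4 (2.67 ± 0.28) and Vcam1 (1.03 ± 0.20) in epididymal fat and Itga4 (3.68 ± 0.61) and Vcam1 (2.43 ± 0.50) in subcutaneous fat, while Selp in subcutaneous fat (0.56 ± 0.25, adjusted p of 0.113), both mesenteric calls, all 3 brown fat calls and both liver calls did not pass. In brown fat the endothelial sums of the diets did not overlap and 0 of 3097 genes were called by limma with this covariate. The endothelial sums did not overlap in subcutaneous or mesenteric fat either. All genes lost calls as well in mesenteric fat, where 77 of 3604 were higher with this covariate against 1018 without. In liver 340 of 2970 were higher with it against 542 without. Shares in epididymal and retroperitoneal fat with this covariate are not given here. In subcutaneous fat 950 of 3489 genes were higher in this fit. It kept lean 2 and 3, the libraries with Cr2, which had the lowest endothelial sums (731 and 757 CPM). Without these libraries and without a covariate, the Itga4 and Vcam1 differences given above were smaller.

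In the adrenal gland Sele was low where the steroid enzyme was missing. Sele was at 1.85, 4.05, 4.61, 14.7 and 4.39 CPM in lean and 0.576, 0.375, 7.50, 8.58 and 6.32 CPM in DIO libraries. The 3 low libraries, lean 1, DIO 1 and DIO 2, were the ones without Hsd3b1 (0, 0.173 and 0.0833 CPM, where the remaining 7 had 4239 to 12653 CPM). Selp and Itga4 differed among these 3: DIO 2 had 14.6 CPM of Selp and 70.4 CPM of Itga4, DIO 1 had 3.46 and 25.6 CPM, and lean 1 had 1.98 and 5.86 CPM. The 7 libraries with Hsd3b1 had 0.854 to 4.61 CPM of Selp and 7.39 to 17.1 CPM of Itga4. So DIO 2 was the highest for both genes, DIO 1 was high for Itga4 alone, and lean 1 had the lowest Itga4. By limma 0 of 4 members were called, as were 0.00% of all genes higher, while 1 member, Itga4, was past an unadjusted p of 0.05 and edgeR called 0. The single fit called Itga4 (adjusted p of 0.0113), where 743 of 3645 genes were higher. Without the 3 libraries Sele was 7.47 ± 1.13 CPM in DIO (SD, n = 3) and 6.94 ± 5.19 CPM in lean libraries (SD, n = 4), and Itga4 14.0 ± 4.76 and 9.69 ± 1.69 CPM.

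**Figure D4:**
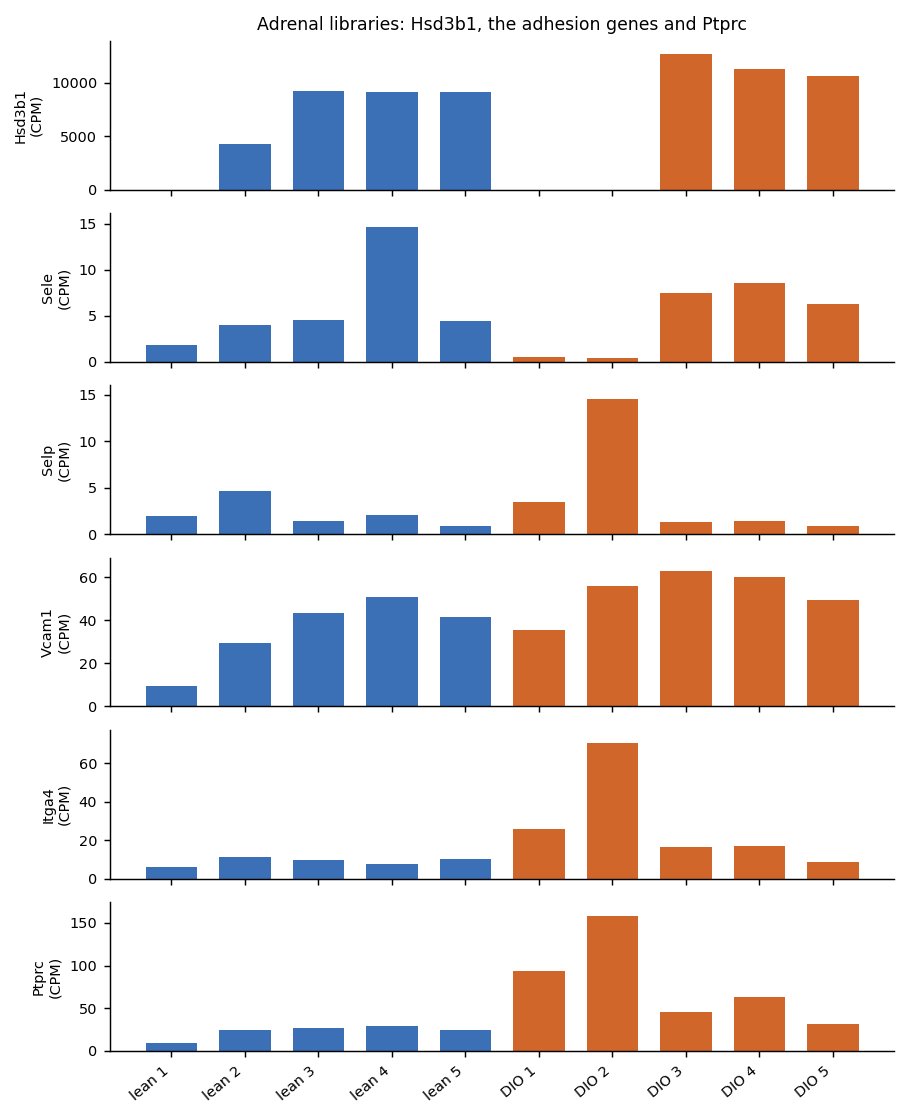
Bars give the level (CPM) of Hsd3b1, Sele, Selp, Vcam1, Itga4 and Ptprc in each of the 10 adrenal libraries, lean in blue and DIO in orange. In lean 1, DIO 1 and DIO 2 Hsd3b1 is at or below 0.173 CPM and Sele at or below 1.85 CPM, and DIO 2 has the highest Selp, Itga4 and Ptprc.

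In the 15 tissues without a call, adrenal included, 0 of 41 pairs were called by limma, 7 were past an unadjusted p of 0.05, all higher in DIO, edgeR called 0 and DESeq2 1. The share of all genes past an unadjusted p of 0.05 is not given here, so the 7 are not read as a result about these genes. Limma with array weights called 4: Vcam1 (adjusted p of 0.0109) and Selp (0.00592) in duodenum, Vcam1 in heart (0.0229) and Vcam1 in stomach (0.00391), where 30.1%, 14.7% and 33.5% of all genes were higher by that fit. The 1 by DESeq2 was Vcam1 in kidney (0.63, adjusted p of 0.0157), where lean libraries had 8.65, 6.52, 6.36, 7.82 and 5.45 CPM and DIO libraries 8.69, 8.38, 12.6, 13.8 and 11.4 CPM. DESeq2 called 48 of 3353 genes higher in kidney. The Vcam1 groups overlapped, lean 1 standing above DIO 2, and limma gave 0.61 ± 0.16 (adjusted p of 0.124), where 0.119% of genes were higher. In duodenum Vcam1 was at 5.45 to 9.69 CPM in lean against 8.75 to 21.1 CPM in DIO libraries (0.83 ± 0.25, adjusted p of 0.155), where 0.253% of genes were higher. Without lean 3 it passed there (adjusted p of 0.0166), as did Selp (0.0103). The share of all genes higher without lean 3 is not given here.

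The lymphoid gene Cr2 was also high in single libraries of the small intestine. In ileum DIO 1 had Cr2 at 48.8 CPM, against at most 2.73 CPM in the others, and was the highest library for Vcam1 (27.3 CPM), Selp (4.70 CPM) and Itga4 (29.5 CPM). In jejunum DIO 5 and DIO 3 had Cr2 at 41.4 and 22.4 CPM and the highest Itga4, 27.5 and 19.1 CPM, and DIO 5 also the highest Selp, 4.55 CPM, while lean 2, with Cr2 at 13.4 CPM, had 12.4 CPM of Itga4. No member was called in either segment, also without the libraries with Cr2 of 10 CPM or more.

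In brain and skeletal muscle limma called no member between diets, with or without array weights. Vcam1 in hypothalamus was at 28.2 to 33.1 CPM in lean against 29.3 to 34.9 CPM in DIO libraries, with a log2 difference of 0.10 and a 95% interval of -0.04 to 0.23. Cerebral cortex had an interval of -0.19 to 0.31 for Vcam1 and -0.51 to 0.32 for Itga4. Itga4 in hypothalamus was 6.28 to 9.12 CPM in lean against 7.92 to 15.5 CPM in DIO libraries (0.48 ± 0.17, adjusted p of 0.878). In soleus and red gastrocnemius the intervals of Vcam1 were -0.20 to 0.42 and -0.23 to 0.35. In heart Sele was at 0.775 to 1.45 CPM in DIO libraries and the interval was -0.34 to 0.47.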

How the data were processed

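Poly(A) RNA of 204 libraries was sequenced with a stranded kit in paired reads, per the labels' protocols. The authors deposited 1 table of CPM values per gene. FastQC, STAR, HTSeq and DESeq2 were used, per the submitters' processing notes. Build, tool versions and strand setting were not given in the sources used here. Present were genes of chromosomes 1, 2, 3 and X and the start of 4, with 13.0% to 23.1% of each library's reads. A column matching no sample (1) and an incomplete row (1) were not used. Library totals (6.58 to 129.7 M reads) set the precision, and limits for a count of 0 (3 counts) cover counting error only.

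The members and gene lists were chosen with earlier results of these data known. Groups came from the labels, and replicate numbers are in accession order. Diet was tested per tissue with limma 3.58.1 (R 4.3.3) on log2(CPM + 0.5), among genes that averaged 0.5 CPM or more, with Benjamini-Hochberg adjustment over all genes tested and a threshold of 0.05. A diet by tissue F test covered white fat, muscle, intestine and brain. Members were named in every tissue, list genes as up to 4 per list with the lowest p past the threshold, and like-pattern genes as the 5 with the highest r. Other genes were named after their values were seen. Some genes of the lists are not reported here.

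Steps in the CPM values gave whole reads for 100% of values (within 0.001 read), on which edgeR 4.0.16 called 0 (hypothalamus) to 1843 genes (epididymal fat), 6144 summed over tissues, and DESeq2 1.42.0 was also run. Other alternatives were the pseudocount, filter, rescaling, array weights, marker covariates, a single fit, and leaving out each library or the 10 with another tissue's marker, and the Cr2 limit of 10 CPM was chosen after seeing the data. The scripts were tested on simulated data. No 2 replicates agreed within counting noise (398 pairs, lowest chi-square per degree of freedom 3.48, median 27.6).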

Additional observations from a re-analysis of the deposited data

Results flagged for a closer look

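In 117 groups of 4 or 5 libraries, the highest or lowest library was checked for its distance from the rest (Dixon's ratio at the 95% level), which chance alone would pass in about 1 in 20 groups, and 17 stood apart. In retroperitoneal fat these were DIO 3 for Vcam1 (265 CPM) and Itga4 (179.7 CPM), lean 2 for Selp (11.2 CPM) and lean 4 for Sele (2.11 CPM). In adrenal they were DIO 2 for Itga4 (70.4 CPM) and Selp (14.6 CPM) and lean 4 for Sele (14.7 CPM). In liver DIO 3 stood apart for Vcam1 (28.2 CPM) and Itga4 (8.17 CPM). In brown fat DIO 3 (3.29 CPM) and lean 1 (1.21 CPM) stood apart for Selp.

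Vcam1 stood apart in epididymal fat DIO 3 (71.7 CPM), the library with the highest total, and in ileum DIO 1 (27.3 CPM), which carried Cr2. Itga4 stood apart in kidney DIO 3 (8.81 CPM) and in EDL muscle DIO 3 (10.6 CPM). Sele stood apart in heart lean 3 (1.60 CPM) and Selp in stomach DIO 5 (1.54 CPM). The diet difference of Itga4 varied among the white fat depots by the diet by tissue test in limma (adjusted p of 0.0228).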

How the results depend on the processing

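Of the settings tried over all tissues, 13 calls higher and 0 lower became 8 higher with a filter of 10 CPM, 8 with the endothelial covariate, and 1 higher and 1 lower with the leukocyte covariate. The other settings gave 9 (rescaled) to 19 (array weights) higher and 0 lower. Leaving out each library gave 11 to 15 higher and 0 lower, 0 to 2 members with a diet by tissue difference in white fat, and 0 in muscle, intestine and brain. The sign turned with the leukocyte covariate for Vcam1 in mesenteric (-0.97), epididymal (-0.13) and retroperitoneal fat (-2.19) and for Itga4 in mesenteric (-1.02), brown (-0.16) and retroperitoneal fat (-0.53). With the endothelial covariate it turned for Vcam1 in brown (-0.14) and subcutaneous fat (2.43) and for Itga4 in the same depots (-0.80 and 3.68). Without the 10 libraries, or without those with Cr2 of 10 CPM or more, it turned in subcutaneous fat for Vcam1 (0.73) and Itga4 (0.98). The filter of 10 CPM leaves fewer genes to test; for the others the cause was not tested. No paired analysis was possible because the labels carry no replicate numbers and do not tie libraries to mice. Genes near 0.5 CPM, Sele in most tissues, are limited by depth.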
